A study of Mus musculus with 10 samples.

Results

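The 4 arrays described here hold RNA of mouse intestinal crypt epithelium enriched for secretory progenitors (Sec-Pro) by blocking the Notch pathway in either of 2 ways. They were taken by their titles, the 2 arrays of mice given DBZ (dibenzazepine, an inhibitor of gamma-secretase) and the 2 arrays of mice with Rbpj deleted, out of 10 arrays in the series. Each gene was read from 1 probe set, the one with the highest mean over the 10 arrays, which gave 12393 genes. All mice were C57BL/6. DBZ Sec-Pro crypts carried no engineered deletion named in the labels, and Rbpj Sec-Pro crypts came from mice with Rbpj deleted and no drug named there. The dose, the time after treatment or deletion, the Cre driver, the age and the number of animals are not given in the sources used here, and untreated crypts with intact Rbpj were not analysed here, so each comparison sets DBZ against Rbpj loss and not either of them against normal crypts. The labels name no cell sort for these crypts. Nor do they say whether arrays of 1 group stem from different mice, so p-values here measure only how these arrays scatter, and that scatter may be technical. The other 6 arrays hold Lgr5+ stem cells (ISC) sorted from Lgr5-eGFP-Cre mice, and, from Atoh1-/- mice, progenitors of enterocytes in the crypt (Ent-Pro) and mature enterocytes of the villus (ENT), 2 arrays each. Both Sec-Pro groups and Ent-Pro were treated with 5 mM EDTA for 50 min, and ENT with 5 mM EDTA for 25 min. No EDTA step was recorded for ISC.

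Notch receptors on a crypt cell are activated by Delta and Jagged ligands on its neighbours, after which gamma-secretase cuts the receptor within the membrane and frees its intracellular domain. In the nucleus this domain binds RBPJ, a DNA-binding protein that recruits Mastermind co-activators when the domain is present and co-repressors when it is not, and genes such as Hes1 and Nrarp are switched on. HES1 represses Atoh1, the transcription factor required for goblet, Paneth and enteroendocrine cells, so that crypts without Notch signalling fill with secretory cells. DBZ acts before RBPJ and blocks the cutting of all gamma-secretase substrates, of which Notch is one among many, whereas deleting Rbpj removes the DNA-binding partner itself.

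The label of secretory progenitors was read against defining genes. Atoh1 had log2 levels of 11.80 and 11.85 in DBZ Sec-Pro and 10.40 and 10.78 in Rbpj Sec-Pro, against 7.68 and 7.80 in ISC and 5.75 and 5.78 in Ent-Pro. Goblet genes, 29 of them, had mean levels of 10.87 and 11.11 in DBZ and 10.21 and 10.68 in Rbpj, against 8.75 and 8.91 in ISC and 7.08 and 7.05 in Ent-Pro. Both preparations thus held these genes above ISC. Ent-Pro came from Atoh1-/- mice, whose genotype fixes its low secretory levels. ISC were sorted stem cells, whereas no sort is named for the Sec-Pro crypts. Without untreated crypts, levels above ISC cannot show whether either preparation was enriched for secretory progenitors. Leukocyte RNA was present too, since Ptprc, the pan-leukocyte marker CD45, had 8.74 and 9.50 in DBZ and 9.83 and 7.74 in Rbpj. The 2 Rbpj arrays were less alike (r = 0.982 across genes) than the 2 DBZ arrays (r = 0.993). A gap of more than 1 (log2) between the arrays of a group was found in 137 genes in DBZ and 492 in Rbpj. Rbpj replicate 2 stood apart in MHC class II, where H2-Aa, an antigen-presenting chain named here after its values were seen, had 12.68 and 12.62 in DBZ and 13.07 and 6.53 in Rbpj. It was not alone, since ENT replicate 2 was low as well (12.20 and 8.89 in ENT). The 42 leukocyte genes had mean levels of 6.72 and 7.22 in DBZ and 7.44 and 6.31 in Rbpj, and the 25 tuft cell genes 7.62 and 7.52 in DBZ and 6.35 and 7.77 in Rbpj. On the RNA-quality probe sets, the 3′ minus 5′ signal of Gapdh was -0.02 and 0.32 in DBZ and -0.01 and 0.03 in Rbpj, and that of Actb was 0.583 and 1.01 in DBZ and 0.492 and 0.593 in Rbpj, highest of these 4 arrays on DBZ replicate 2. On the ISC arrays the Gapdh signal was 1.61 and 1.82. The mean of the 18S ribosomal RNA probe sets was 13.37 and 13.75 in DBZ and 12.63 and 12.64 in Rbpj, where it was lowest of all 10 arrays. The part of this difference in the comparison was not tested. In bulk RNA, fewer cells of a type and less RNA per cell cannot be told apart.

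Across the 12393 genes, 1158 (9.34%) were higher in DBZ Sec-Pro and 878 (7.08%) were lower than in Rbpj Sec-Pro, 2036 (16.4%) in all (limma on all 10 arrays, Benjamini-Hochberg adjusted p under 0.05). In each of them both DBZ arrays lay on the same side of both Rbpj arrays, as they did in 35.1% of all genes upward and 24.6% downward. Changes of at least 2-fold numbered 275 upward and 319 downward, and changes of at least 4-fold 27 upward and 64 downward, so the largest differences were mostly of genes lower in DBZ. The median difference over all genes was 0.06 (log2). Counts depended on the arrays used. With DBZ replicate 2 left out, 199 genes were higher and 164 lower, and 347 of these 363 were among the 2036. Without Rbpj replicate 1, 573 were higher and 445 lower, and without DBZ replicate 1, 682 and 591. With 1 of the Ent-Pro arrays left out, whichever it was, 752 were higher and 611 lower. Fitted on the 4 Sec-Pro arrays alone, with no help from the spread of the other groups, 43 were higher and 54 lower. Of the 166 called genes that the naming rule picks, 63 kept their call with any single array left out and 98 lost it without DBZ replicate 2. Without Rbpj replicate 1, 51 of them lost it, 30 without DBZ replicate 1, 21 without Rbpj replicate 2, and 26, 25 and 15 without 1 array of Ent-Pro, ISC and ENT.

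**Figure D1:**
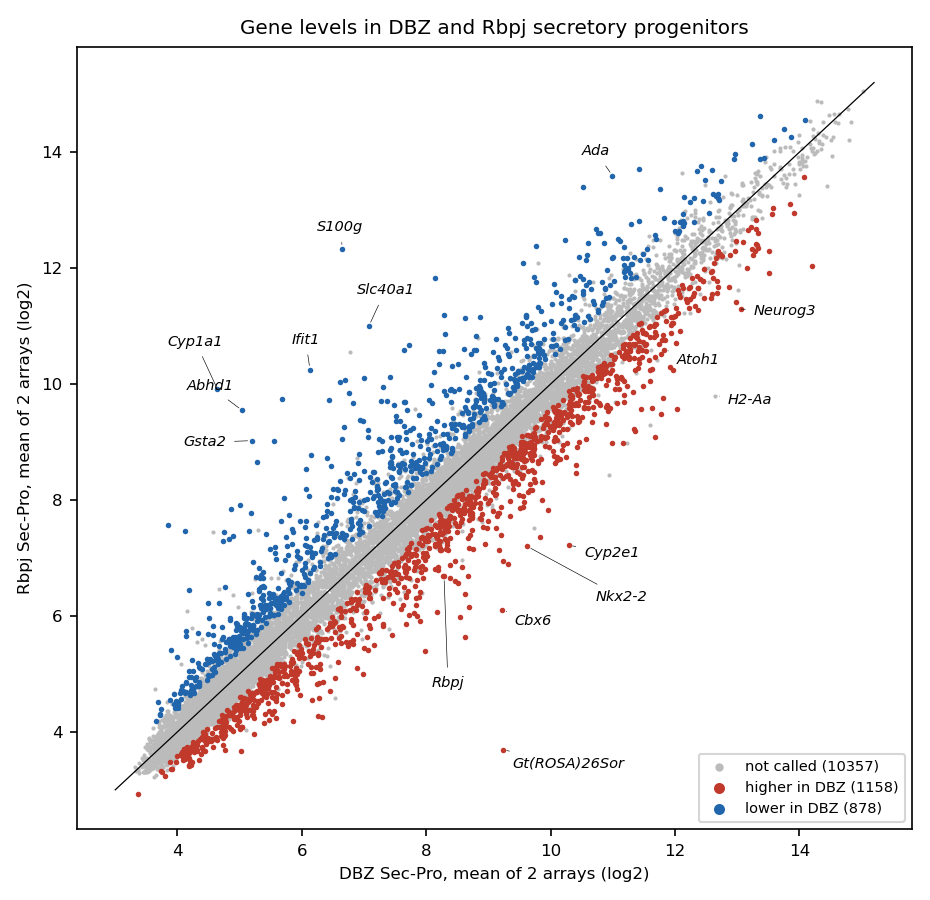
Mean log2 level of each of the 12393 genes in DBZ Sec-Pro (x axis) and Rbpj Sec-Pro (y axis), 2 arrays each. Red points are the 1158 genes called higher in DBZ, blue points the 878 called lower and grey points the rest; the line marks equal levels. Gt(ROSA)26Sor lies farthest below the line, and S100g, Cyp1a1 and Abhd1 farthest above it.

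Rbpj itself had 8.26 and 8.31 in DBZ and 6.74 and 6.62 in the knockout crypts, so both Rbpj arrays were low and close together, with signal left above background. The difference was 1.61 (log2, SE 0.12, adjusted p = 0.000592), and the second Rbpj probe set, with 7.20 and 7.03 in DBZ and 6.05 and 5.91 in Rbpj, was lower there too. Whether either probe set lies in the deleted part of the gene is not given in the sources used here. Nrarp, a Notch target whose product limits Notch signalling, had 7.63 and 7.45 in DBZ and 8.69 and 9.38 in Rbpj. Both DBZ arrays were below both Rbpj arrays (log2 difference -1.49, SE 0.22, adjusted p = 0.00583), and the gene's second probe set had the same direction. Hes1, the Notch target that represses Atoh1, had 7.70 and 6.72 in DBZ and 8.05 and 8.68 in Rbpj, lower in DBZ (log2 difference -1.16, SE 0.33, adjusted p = 0.0446). The call of Hes1 was lost without DBZ replicate 2 (adjusted p = 0.241), without Rbpj replicate 2 (0.133) and without 1 array of any of the other 3 groups. Among the 33 measured Notch targets and nuclear partners of RBPJ, 5 were higher in DBZ and 2, Nrarp and Hes1, were lower, against 9.34% and 7.08% of all genes. Their median difference was 0.06, the same as over all genes. The higher ones were Rbpj, the co-repressor Ctbp1 (11.88 and 12.02 in DBZ against 10.79 and 11.32 in Rbpj; 0.90, SE 0.18, adjusted p = 0.0136), the transcription factor Sox9, and Tle3 and Maml1, the last 2 named after their values were seen. When DBZ replicate 2 was dropped, Ctbp1 lost its call (adjusted p = 0.0924), Sox9 too (0.076), and 1 gene of this list was higher and 1 lower.

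Of 23 Notch receptors, ligands and their modifiers, 6 were higher in DBZ and 2 were lower, against 9.34% and 7.08% of all genes. The median difference was 0.08. Mfng, a Fringe glycosyltransferase that alters how receptors respond to ligands, had 7.99 and 7.80 in DBZ and 6.39 and 6.42 in Rbpj, and the 2 groups stood well apart (log2 difference 1.49, SE 0.13, adjusted p = 0.000979). The ligand gene Dll3 had 6.09 and 7.87 in DBZ and 5.16 and 4.83 in Rbpj, high mainly on DBZ replicate 2 (log2 difference 1.98, SE 0.45, adjusted p = 0.0219). Dll4 had 8.56 and 8.86 in DBZ against 8.01 and 8.07 in Rbpj (0.66, SE 0.16, adjusted p = 0.0271). The receptor gene Notch4 had 7.37 and 7.88 in DBZ against 6.00 and 6.40 in Rbpj (1.43, SE 0.24, adjusted p = 0.00805). Its probe set with the lowest mean gave a difference of only 0.080, which was not called. Dll1, a Delta ligand made by secretory progenitors, was not called, with 11.46 and 11.43 in DBZ and 10.04 and 11.26 in Rbpj, a gap set by Rbpj replicate 1 (log2 difference 0.80, SE 0.31, adjusted p = 0.114). Lfng was called higher (1.17, SE 0.29, adjusted p = 0.028), but its probe set with the lowest mean had the opposite sign. Mib1, which marks Delta ligands for uptake, was also higher, and Numb, an inhibitor of Notch, and Neurl1a were lower by under 1 (log2), all 3 named after their values were seen. In the fit lacking DBZ replicate 2, Notch4 (adjusted p = 0.0602), Dll4 (0.161) and Lfng (0.141) lost their calls, which left 2 genes higher and 0 lower, and Dll3 lost its call without Rbpj replicate 1 (0.0515).

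The target of DBZ was measured through 4 subunit genes of gamma-secretase, none of which passed the limma test (0 at an adjusted p under 0.05 and 1, Psen2, at an unadjusted p under 0.05). Psen2, a catalytic presenilin, had 8.13 and 8.42 in DBZ and 7.68 and 7.83 in Rbpj (log2 difference 0.52, SE 0.15, adjusted p = 0.0501). Psenen had 11.72 and 11.81 in DBZ and 11.41 and 11.67 in Rbpj (0.23, SE 0.14, adjusted p = 0.305). Of 24 genes for other membrane proteins that gamma-secretase cuts, 2 were higher and 1 was lower, with a median difference of 0.08. The receptor phosphatase gene Ptprf had 11.60 and 11.60 in DBZ and 10.93 and 11.07 in Rbpj (0.60, SE 0.12, adjusted p = 0.0148). Lrp1, a lipoprotein receptor gene, had 7.50 and 7.40 in DBZ and 6.72 and 7.01 in Rbpj (0.59, SE 0.16, adjusted p = 0.04). The proteoglycan gene Sdc3 was lower, with 6.77 and 6.56 in DBZ and 7.50 and 7.31 in Rbpj (-0.74, SE 0.17, adjusted p = 0.0221). These 3 calls were lost without DBZ replicate 2, at adjusted p = 0.0828 for Ptprf, 0.132 for Lrp1 and 0.133 for Sdc3, and the shares called lay at or below those of all genes.

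Transcription factors of the secretory lineages were higher in DBZ as a group. Of 30 measured, 18 (60%) were higher in DBZ and 0 were lower, against 9.34% and 7.08% of all genes, and their median difference was 1.11 (log2), against 0.06 over all genes. Atoh1, already described, was 2.34-fold higher in DBZ (log2 difference 1.23, SE 0.15, adjusted p = 0.00321). Neurog3, which starts enteroendocrine differentiation, had 13.29 and 12.84 in DBZ and 10.83 and 11.75 in Rbpj (1.77, SE 0.27, adjusted p = 0.00612), and both of its probe sets had this direction. Below Neurog3 in the endocrine programme, Neurod1 had 11.66 and 11.24 in DBZ and 9.94 and 9.20 in Rbpj (1.88, SE 0.27, adjusted p = 0.00534). Nkx2-2 had 9.58 and 9.67 in DBZ and 6.81 and 7.59 in Rbpj (2.42, SE 0.27, adjusted p = 0.00224). All 4 genes had their lowest DBZ array above their highest Rbpj array by more than 1 (log2).

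Factors of goblet and Paneth cells moved the same way. Bhlha15 (Mist1), which builds up the secretory machinery of exocrine cells, had 11.36 and 12.01 in DBZ and 8.53 and 9.63 in Rbpj and was 6.08-fold higher in DBZ (log2 difference 2.60, SE 0.36, adjusted p = 0.00494). On its probe set with the lowest mean the difference was 0.64 and was not called. Spdef, required for goblet and Paneth cell maturation, had 11.10 and 12.10 in DBZ and 10.22 and 9.89 in Rbpj (1.54, SE 0.28, adjusted p = 0.0106). Gfi1, which acts below Atoh1 and holds back the endocrine fate, had 9.40 and 9.92 in DBZ and 8.14 and 8.22 in Rbpj (1.48, SE 0.18, adjusted p = 0.00321). Each of these genes and the 4 before kept its call with any single array left out. Without DBZ replicate 2, 13 of the 30 factors were higher, 15 without DBZ replicate 1, 17 without Rbpj replicate 1 and 18 without Rbpj replicate 2. On the 4 Sec-Pro arrays alone 2 passed, with the same median.

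**Figure D2:**
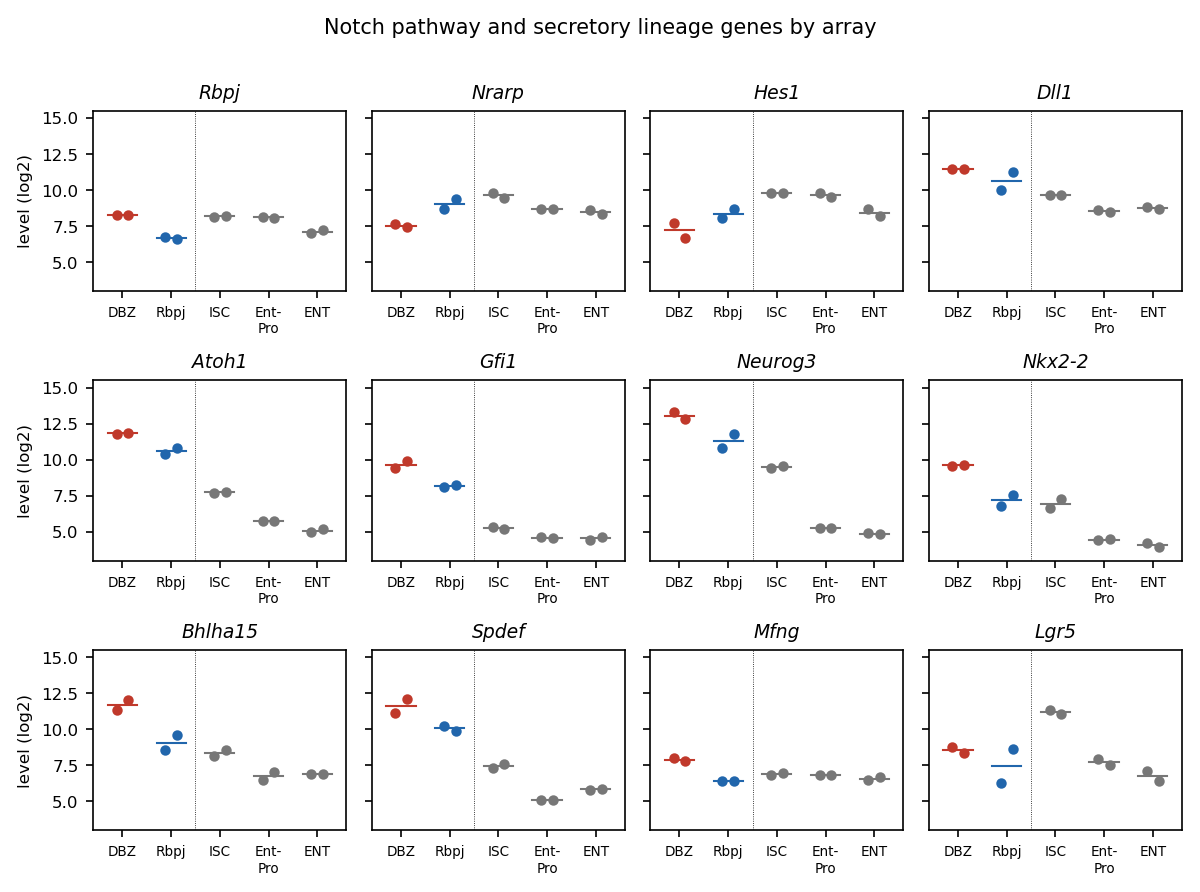
Log2 level of 12 Notch pathway and secretory genes on every array: DBZ Sec-Pro (red), Rbpj Sec-Pro (blue), then ISC, Ent-Pro and ENT (grey); points are arrays and bars their mean, and the dotted line sets the Sec-Pro groups apart from the rest. Rbpj is low in Rbpj Sec-Pro, Nrarp is lowest in DBZ Sec-Pro, and Atoh1, Gfi1, Neurog3, Nkx2-2, Bhlha15 and Spdef are highest in DBZ, while Lgr5 and Dll1 are uneven between the Rbpj arrays.

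Products of secretory cells were higher in DBZ in part. Of 29 goblet cell genes 11 (37.9%) were higher in DBZ and 2 were lower, with a median difference of 0.71. The higher ones included Tmed3, a cargo receptor between endoplasmic reticulum and Golgi, with 11.78 and 12.15 in DBZ and 9.91 and 10.56 in Rbpj (1.73, SE 0.23, adjusted p = 0.00401). Creb3l4, a transcription factor held in the endoplasmic reticulum membrane, had 10.10 and 10.40 in DBZ and 8.48 and 8.99 in Rbpj (1.51, SE 0.18, adjusted p = 0.00296). The tryptase gene Tpsg1 had 9.27 and 9.69 in DBZ and 8.16 and 8.38 in Rbpj (1.21, SE 0.17, adjusted p = 0.00466). Ccl9, a chemokine gene, had 13.38 and 13.64 in DBZ and 11.50 and 12.32 in Rbpj (1.60, SE 0.31, adjusted p = 0.0126). Creb3l1, a relative of Creb3l4, had 9.09 and 10.31 in DBZ and 8.31 and 8.04 in Rbpj (1.52, SE 0.37, adjusted p = 0.0277). Clca1, a protein secreted with mucus, did not separate the groups, with 12.93 and 13.49 in DBZ and 12.83 and 13.52 in Rbpj (log2 difference 0.03, SE 0.25, adjusted p = 0.945). The 2 lower genes, named after their values were seen, were Zg16, a goblet cell lectin, with 13.68 and 12.80 in DBZ and 14.23 and 14.05 in Rbpj, and the membrane mucin Muc3, with 10.84 and 11.16 in DBZ and 12.41 and 11.98 in Rbpj. With DBZ replicate 2 left out, 4 goblet genes were higher and 1 lower, and Ccl9 (adjusted p = 0.0903) and Creb3l1 (0.134) lost their calls; without Rbpj replicate 1, 6 were higher and 3 lower.

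Of 19 Paneth cell genes, 4 (21.1%) were higher in DBZ and 0 were lower, with a median of 0.56. Fgfrl1, a fibroblast growth factor receptor without a kinase, had 9.08 and 9.60 in DBZ and 7.61 and 7.83 in Rbpj (1.62, SE 0.17, adjusted p = 0.00172). Wnt3, the Wnt ligand that Paneth cells supply to stem cells, had 7.14 and 6.85 in DBZ and 5.33 and 5.57 in Rbpj (1.54, SE 0.16, adjusted p = 0.00146). Pla2g2a, a secreted antibacterial phospholipase, had 11.32 and 11.95 in DBZ and 10.19 and 8.98 in Rbpj (2.05, SE 0.42, adjusted p = 0.0157). Sox9, required for Paneth cells, had 9.54 and 9.86 in DBZ and 8.28 and 8.75 in Rbpj (1.19, SE 0.21, adjusted p = 0.00976). None of these 4 encodes a defensin. Lyz1, the lysozyme gene of Paneth cells, was at the top of the scale in both groups, with 15.01 and 15.03 in DBZ and 15.05 and 15.05 in Rbpj, so no difference could be read from it. When DBZ replicate 2 was dropped, Pla2g2a (adjusted p = 0.112) and Sox9 (0.076) lost their calls and 2 Paneth genes stayed above the threshold.

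Genes that help proteins fold in the endoplasmic reticulum were higher in DBZ in 12 of 37 cases (32.4%) and lower in 1, with a median of 0.47. Ern2, the IRE1 beta stress sensor of mucus-secreting cells, had 10.93 and 11.43 in DBZ and 9.55 and 9.82 in Rbpj (log2 difference 1.50, SE 0.26, adjusted p = 0.00967). The disulfide isomerase gene Pdia5 had 12.05 and 12.11 in DBZ and 10.92 and 10.90 in Rbpj (1.17, SE 0.17, adjusted p = 0.00583). Pdia6, of the same family, had 12.66 and 13.07 in DBZ and 11.65 and 11.71 in Rbpj (1.19, SE 0.14, adjusted p = 0.00321), but its probe set with the lowest mean had the opposite sign. Sdf2l1, a chaperone cofactor, had 11.31 and 11.64 in DBZ and 10.55 and 10.63 in Rbpj (0.88, SE 0.15, adjusted p = 0.00844). Edem2, which marks misfolded proteins for disposal, had 10.14 and 10.73 in DBZ and 9.11 and 9.59 in Rbpj (1.09, SE 0.24, adjusted p = 0.0205). The lower one, named after its values were seen, was Trib3, a target of the stress factor CHOP, with 6.61 and 6.31 in DBZ and 7.20 and 6.92 in Rbpj. In the fit lacking DBZ replicate 2, Ern2 (adjusted p = 0.0744), Sdf2l1 (0.0607) and Edem2 (0.13) lost their calls and 3 genes of the list were higher, and without Rbpj replicate 1, 5 were. Heat shock genes of the cytosol and mitochondria gave 0 calls higher and 0 lower among 14 in limma, with 2, Hspd1 and Hspa1a, at an unadjusted p under 0.05.

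Hormone and granule genes of enteroendocrine cells were not higher in DBZ as a group. Of 34 enteroendocrine genes 3 (8.82%) were higher in DBZ and 3 were lower, close to the share of all genes, and the median was -0.10. Gfra3, a co-receptor for the neurotrophic factor artemin, had 10.10 and 9.62 in DBZ and 8.39 and 8.22 in Rbpj (1.56, SE 0.17, adjusted p = 0.00203). The exocytosis gene Cplx2 had 8.87 and 8.94 in DBZ and 7.72 and 7.34 in Rbpj (1.38, SE 0.21, adjusted p = 0.0066), and the third higher gene was the prohormone convertase Pcsk1, named after its values were seen. Ghrl, which encodes ghrelin, was lower, with 8.82 and 8.89 in DBZ and 9.96 and 9.69 in Rbpj (-0.97, SE 0.15, adjusted p = 0.0063), as was the secretory granule gene Resp18, with 5.58 and 5.10 in DBZ and 7.25 and 6.17 in Rbpj (-1.36, SE 0.30, adjusted p = 0.0209). Syp, a synaptic vesicle gene, was called lower (-1.06, SE 0.24, adjusted p = 0.0232), but its probe set with the lowest mean had the opposite sign. Chga, the granule protein chromogranin A, had 10.55 and 10.29 in DBZ and 9.91 and 9.45 in Rbpj and was not called (0.74, SE 0.23, adjusted p = 0.0568). The list leaned on Rbpj replicate 1: without it 5 genes were higher and 2 lower, and without Rbpj replicate 2, 3 were higher and 14 lower. Cplx2 (adjusted p = 0.0507), Resp18 (0.133) and Syp (0.146) lost their calls without DBZ replicate 2.

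Tuft cell genes separated the Rbpj arrays from each other more than from DBZ. Dclk1, a tuft cell marker, had 8.17 and 8.23 in DBZ and 5.48 and 9.26 in Rbpj, so 1 Rbpj array was below and the other above both DBZ arrays (log2 difference 0.83, SE 0.97, adjusted p = 0.584). Of 25 genes 2 were called higher in DBZ, near the 9.34% of all genes. They were Gng13, a G protein subunit of taste signalling (6.97 and 7.65 in DBZ, 5.09 and 6.58 in Rbpj; 1.48, SE 0.42, adjusted p = 0.0445), and the keratin Krt18 (13.60 and 13.56 in DBZ, 13.02 and 13.06 in Rbpj; 0.53, SE 0.15, adjusted p = 0.0389). Without Rbpj replicate 2, 15 tuft genes were higher in DBZ, and without Rbpj replicate 1, 0 were higher and 1 was lower. Neither Gng13 (adjusted p = 0.235) nor Krt18 (0.143) passed without DBZ replicate 2.

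Stem cell and Wnt target genes leaned toward DBZ, set against 9.34% of all genes higher and 7.08% lower. Of 28 stem cell genes 7 (25%) were higher and 1, Igfbp4, named after its values were seen, was lower in DBZ, and of 27 Wnt targets, a list that shares members with it, 7 (25.9%) were higher and 1, the receptor gene Fzd7, was lower (7.45 and 7.18 in DBZ, 8.19 and 8.02 in Rbpj; -0.79, SE 0.15, adjusted p = 0.0135). Ephb3, a receptor that keeps crypt cells in position, had 9.84 and 10.46 in DBZ and 8.66 and 8.76 in Rbpj (1.44, SE 0.20, adjusted p = 0.00466). Prom1, a membrane protein of crypt base cells, had 12.81 and 12.58 in DBZ and 11.64 and 11.72 in Rbpj (1.02, SE 0.16, adjusted p = 0.00765). Phlda1 had 11.58 and 11.89 in DBZ and 10.78 and 10.62 in Rbpj (1.04, SE 0.23, adjusted p = 0.021). The RNA-binding protein gene Msi1 was called higher (1.26, SE 0.29, adjusted p = 0.023), but its probe set with the lowest mean had the opposite sign. Lgr5, the marker of the stem cells themselves, was not called, with 8.80 and 8.37 in DBZ and 6.31 and 8.61 in Rbpj, 1 Rbpj array lying within the DBZ range (log2 difference 1.13, SE 0.61, adjusted p = 0.228). Of 8 reserve stem cell genes, Lrig1, a brake on EGF receptors (10.95 and 10.81 in DBZ, 9.76 and 10.20 in Rbpj; 0.90, SE 0.16, adjusted p = 0.0101), and Hopx (13.24 and 13.11 in DBZ, 12.57 and 12.75 in Rbpj; 0.52, SE 0.15, adjusted p = 0.0446) were higher, along with Sox9, and Anxa2 was lower (12.49 and 11.99 in DBZ, 13.47 and 12.79 in Rbpj; -0.89, SE 0.23, adjusted p = 0.0352). Without Rbpj replicate 1 the stem cell list had 3 higher and 3 lower, and without Rbpj replicate 2, 14 and 0. Calls lost without DBZ replicate 2 were those of Fzd7 (adjusted p = 0.0965), Phlda1 (0.132), Msi1 (0.145), Lrig1 (0.0528), Hopx (0.131) and Anxa2 (0.206).

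Genes of nutrient uptake were lower in DBZ than in Rbpj Sec-Pro. Of 27 nutrient transporter genes 13 (48.1%) were lower and 2, Slc5a8 and the bile acid carrier Slc10a2, both named after their values were seen, were higher, with a median of -1.03. S100g (calbindin-D9k), which ferries calcium across enterocytes, had 5.67 and 7.63 in DBZ and 11.66 and 13.01 in Rbpj, the largest difference downward of all named genes (51.5-fold lower in DBZ; log2 difference -5.69, SE 0.91, adjusted p = 0.00747). Slc40a1 (ferroportin), which exports iron into the blood, had 6.92 and 7.23 in DBZ and 10.85 and 11.14 in Rbpj (15.2-fold lower; -3.92, SE 0.51, adjusted p = 0.00401). The folate carrier Slc46a1 had 7.62 and 7.22 in DBZ and 10.16 and 10.09 in Rbpj (-2.70, SE 0.24, adjusted p = 0.000979). The citrate carrier Slc13a2 had 9.01 and 7.52 in DBZ and 10.87 and 10.29 in Rbpj (-2.31, SE 0.40, adjusted p = 0.00966). The sulfate carrier Slc13a1 had 9.18 and 8.54 in DBZ and 10.39 and 11.93 in Rbpj (-2.30, SE 0.57, adjusted p = 0.0288). The first 4 kept their calls with any single array left out. Without DBZ replicate 2, 6 transporters were lower and 0 higher, the median was -0.73, and Slc13a1 lost its call (adjusted p = 0.162).

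Fat handling showed the same direction, with 12 of 27 lipid absorption genes (44.4%) lower in DBZ, 0 higher and a median of -0.78. Dgat2, which makes triglyceride, had 8.96 and 8.29 in DBZ and 11.31 and 10.98 in Rbpj (5.72-fold lower; log2 difference -2.52, SE 0.23, adjusted p = 0.000979). Mttp, which loads lipid onto chylomicrons, had 12.13 and 11.39 in DBZ and 13.54 and 13.20 in Rbpj (-1.61, SE 0.23, adjusted p = 0.00534). Rbp2, the retinol-binding protein of enterocytes, had 10.75 and 10.18 in DBZ and 12.43 and 11.96 in Rbpj (-1.73, SE 0.23, adjusted p = 0.00401). Lrat, which esterifies retinol, had 5.62 and 5.00 in DBZ and 6.13 and 7.54 in Rbpj (-1.52, SE 0.44, adjusted p = 0.0465). Apoc2, a chylomicron apolipoprotein, had 12.06 and 10.79 in DBZ and 14.05 and 13.35 in Rbpj (-2.27, SE 0.43, adjusted p = 0.012). Fabp1, the abundant fatty acid carrier of enterocytes, had 14.22 and 13.97 in DBZ and 14.59 and 14.52 in Rbpj, a small difference (-0.46, SE 0.12, adjusted p = 0.0367). With DBZ replicate 2 left out, 3 genes of the list were lower, and Apoc2 (adjusted p = 0.0735), Lrat (0.237) and Fabp1 (0.205) lost their calls; without Rbpj replicate 1, 6 were lower.

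At the brush border, 4 of 15 digestive enzyme genes and 4 of 19 genes of the microvillus list were lower in DBZ, against 0 and 1 higher. The 4 of the microvillus list were the keratins Krt20 and Krt19, Slc9a3r1, and Fabp1, described above. Its members Vil1 (log2 difference -0.40), Ezr (-0.62), Pls1 (-0.60), Espn (-0.06) and Eps8 (0.34), named after their values were seen, were not called. Among all genes 7.08% were lower and 9.34% higher. Tmprss15 (enteropeptidase), which activates trypsinogen, had 5.05 and 4.96 in DBZ and 7.94 and 7.87 in Rbpj (7.49-fold lower; log2 difference -2.90, SE 0.31, adjusted p = 0.00175). The nucleotide-cleaving ectoenzyme Enpp3 had 11.12 and 10.36 in DBZ and 13.14 and 12.20 in Rbpj (-1.93, SE 0.32, adjusted p = 0.00826). Its probe set with the lowest mean gave a difference of -0.36, which was not called. Nt5e, the ectonucleotidase CD73, had 6.35 and 5.79 in DBZ and 7.54 and 7.13 in Rbpj (-1.27, SE 0.24, adjusted p = 0.0119). The trehalase gene Treh had 8.18 and 7.66 in DBZ and 8.99 and 9.07 in Rbpj (-1.11, SE 0.23, adjusted p = 0.0172). Keratin genes were lower too, Krt20, a keratin of differentiated enterocytes, with 13.00 and 12.19 in DBZ and 13.94 and 13.44 in Rbpj (-1.09, SE 0.27, adjusted p = 0.0293) and Krt19 with 12.47 and 11.83 in DBZ and 13.38 and 13.05 in Rbpj (-1.07, SE 0.21, adjusted p = 0.0124). Slc9a3r1, a scaffold protein of microvilli, had 12.86 and 12.63 in DBZ and 13.73 and 13.26 in Rbpj (-0.75, SE 0.16, adjusted p = 0.0206), whereas the tight junction gene Ocln was higher, with 10.88 and 10.65 in DBZ and 10.20 and 10.20 in Rbpj (0.56, SE 0.13, adjusted p = 0.0241). Only Tmprss15 among these passed without DBZ replicate 2, where adjusted p was 0.0602 for Enpp3, 0.0859 for Nt5e, 0.117 for Treh, 0.161 for Krt20, 0.0685 for Krt19, 0.13 for Slc9a3r1 and 0.0628 for Ocln.

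Among 27 transcription factors of enterocytes, 7 (25.9%) were lower in DBZ and 1, Gata5, named after its values were seen, was higher. Hes1, already counted among the Notch targets, was 1 of these 7. Nuclear receptors led the lower factors. Nr1i3 (CAR), a sensor of foreign compounds, had 7.03 and 6.21 in DBZ and 8.49 and 8.17 in Rbpj (-1.72, SE 0.28, adjusted p = 0.00755). Nr1i2 (PXR), another, had 7.64 and 7.57 in DBZ and 8.85 and 8.76 in Rbpj (-1.20, SE 0.12, adjusted p = 0.00146). The lipid sensor Pparg had 6.16 and 5.33 in DBZ and 7.30 and 7.43 in Rbpj (-1.62, SE 0.25, adjusted p = 0.00643). Creb3l3, a lipid-responsive factor of the endoplasmic reticulum membrane, had 9.86 and 9.37 in DBZ and 11.56 and 10.84 in Rbpj (-1.59, SE 0.28, adjusted p = 0.00967). Of 20 genes of the villus programme and BMP signalling, 7 (35%) were lower and 1, the Hedgehog receptor gene Ptch1, named after its values were seen, was higher. The lower ones included the apolipoprotein Apoa4, with 13.73 and 13.01 in DBZ and 14.69 and 14.57 in Rbpj (-1.26, SE 0.23, adjusted p = 0.0108), and the BMP target Id1, with 10.33 and 9.44 in DBZ and 11.29 and 10.77 in Rbpj (-1.15, SE 0.29, adjusted p = 0.0315). The others were Ada, Enpp3, Nt5e, Krt20 and Egfr. Id1 was the only BMP gene called. Of the BMP genes not called, named after their values were seen, Id2 (0.17), Bmp4 (0.35) and Bmp7 (0.43) leaned higher in DBZ. Bmp2 (-0.05), Bmpr1a (-0.15), Smad7 (-0.20), Smad6 (-0.32) and Id3 (-0.53) leaned lower. Of 14 purine genes 7 (50%) were lower and 1 was higher. Ada, Enpp3 and Nt5e were in both the villus and the purine list, and Enpp3 and Nt5e were brush border enzymes above too. Such genes are counted in each of their lists, here and below, so the shares of these lists are not independent. Adenosine deaminase, Ada, had 11.18 and 10.81 in DBZ and 14.10 and 13.09 in Rbpj (6.06-fold lower; -2.60, SE 0.28, adjusted p = 0.00205). The nucleotidase Entpd5 had 8.91 and 8.53 in DBZ and 10.75 and 10.28 in Rbpj (-1.80, SE 0.21, adjusted p = 0.00291). Xanthine dehydrogenase, Xdh, had 10.17 and 9.43 in DBZ and 11.61 and 11.05 in Rbpj (-1.53, SE 0.29, adjusted p = 0.012), and the deaminase gene Ampd2 was higher, with 10.84 and 10.93 in DBZ and 8.90 and 9.72 in Rbpj (1.57, SE 0.26, adjusted p = 0.00805). Lost without DBZ replicate 2 were Creb3l3 (adjusted p = 0.0749), Apoa4 (0.06), Id1 (0.166), Xdh (0.0841) and Ampd2 (0.0587), which left 4 transcription factors, 1 villus gene and 2 purine genes lower.

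Detoxification enzymes were lower in DBZ across both phases. Of 45 phase I genes (oxidation, reduction and hydrolysis) 17 (37.8%) were lower and 1, Cyp2c38, was higher, with a median of -0.88. Of 36 phase II and export genes 19 (52.8%) were lower and 1, Gstm5, was higher, with a median of -0.79; these 2 higher genes were named after their values were seen. Cyp1a1, a cytochrome P450 switched on by the aryl hydrocarbon receptor, had 4.71 and 4.58 in DBZ, near background, and 11.05 and 8.78 in Rbpj, at least 36.7-fold lower in DBZ (log2 difference -5.27, SE 0.62, adjusted p = 0.00281). The 2 Rbpj arrays differed from each other by over 2 (log2), though both stood far above DBZ. The alcohol dehydrogenase Adh4 had 5.99 and 5.12 in DBZ and 8.72 and 9.30 in Rbpj (11-fold lower; -3.46, SE 0.29, adjusted p = 0.000979). Ephx1, an epoxide hydrolase, had 7.45 and 7.30 in DBZ and 10.28 and 9.14 in Rbpj (-2.33, SE 0.33, adjusted p = 0.00494). The carboxylesterase Ces1f had 9.41 and 7.81 in DBZ and 10.30 and 10.90 in Rbpj (-1.99, SE 0.43, adjusted p = 0.0193). The aldo-keto reductase Akr1b8 had 6.87 and 6.47 in DBZ and 10.62 and 7.90 in Rbpj, high mainly on Rbpj replicate 1 (-2.59, SE 0.72, adjusted p = 0.043).

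Glutathione transferases were prominent in the second phase. Gsta2 had 5.52 and 4.87 in DBZ and 9.07 and 8.98 in Rbpj (14.2-fold lower; -3.83, SE 0.24, adjusted p = 0.00031). Gsta4 had 8.46 and 7.81 in DBZ and 12.03 and 11.63 in Rbpj (-3.69, SE 0.49, adjusted p = 0.00438). Gsta3 had 4.79 and 4.88 in DBZ and 7.76 and 6.87 in Rbpj (-2.48, SE 0.35, adjusted p = 0.0053). The glucuronosyltransferase Ugt2b5 had 6.04 and 4.50 in DBZ and 7.91 and 9.40 in Rbpj (-3.38, SE 0.66, adjusted p = 0.013). Its relative Ugt2b38 had 4.07 and 4.17 in DBZ, near background, and 6.20 and 8.72 in Rbpj, at least 6.71-fold lower (-3.34, SE 0.88, adjusted p = 0.0352). Members of these 2 families are alike in sequence, so a probe set may read more than 1 of them. Abcc2, which pumps conjugates out of the cell, had 9.03 and 8.55 in DBZ and 11.35 and 10.30 in Rbpj (-2.03, SE 0.31, adjusted p = 0.0061). When DBZ replicate 2 was dropped, 5 phase I genes and 7 phase II genes were lower, and Ces1f (adjusted p = 0.0525), Akr1b8 (0.192), Ugt2b5 (0.0935), Ugt2b38 (0.145) and Abcc2 (0.0507) lost their calls.

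The aryl hydrocarbon receptor, a ligand-activated factor that dietary and bacterial indoles switch on in the gut, was itself lower: Ahr had 7.80 and 7.79 in DBZ and 8.78 and 8.82 in Rbpj (-1.01, SE 0.16, adjusted p = 0.00783). Of 10 genes of its battery 4 were lower in DBZ and 0 were higher, against 7.08% and 9.34% of all genes. Besides Cyp1a1 and Ahr these were the quinone reductase Nqo1, with 6.11 and 6.01 in DBZ and 8.47 and 8.59 in Rbpj (5.53-fold lower; -2.47, SE 0.18, adjusted p = 0.000592), and the aldehyde dehydrogenase Aldh1a7, with 8.86 and 8.18 in DBZ and 9.75 and 10.09 in Rbpj (-1.40, SE 0.38, adjusted p = 0.0386). The rest, named after their values were seen, were not called. Tiparp (log2 difference 0.23), Ahrr (0.26) and Aldh3a1 (0.15) leaned higher in DBZ, and Cyp1b1 (-0.47), Arnt (-0.12) and Cyp1a2 (-0.04) leaned lower. Ahrr and Cyp1a2 were near background in both groups. Of 18 genes of the oxidative-stress factor NRF2, 5 (27.8%) were lower and 0 were higher, including Nqo1 and the gene of the factor, Nfe2l2, with 11.53 and 11.05 in DBZ and 12.23 and 11.89 in Rbpj (-0.77, SE 0.19, adjusted p = 0.0284). Gclm and Gclc, the subunits of the first enzyme of glutathione synthesis, had 10.42 and 9.97 in DBZ and 11.28 and 10.92 in Rbpj (-0.91, SE 0.21, adjusted p = 0.023) and 9.66 and 9.66 in DBZ and 10.35 and 10.13 in Rbpj (-0.58, SE 0.16, adjusted p = 0.045). The iron store gene Fth1 had 13.76 and 13.43 in DBZ and 14.06 and 14.37 in Rbpj (-0.61, SE 0.18, adjusted p = 0.0481). Cyp1a1 and Nqo1 kept their calls with any single array left out, whereas without DBZ replicate 2 adjusted p was 0.0528 for Ahr, 0.218 for Aldh1a7, 0.166 for Nfe2l2, 0.144 for Gclm, 0.166 for Gclc and 0.253 for Fth1. The 200 bases before the start of Cyp1a1 are shown because this gene had the largest fall of the detoxification genes. Capitals mark the letters GCGTG, searched here as the core of receptor sites (RefSeq, GRCm38.p6, chr9:57697413-57697612, plus strand, 5′ to 3′).
Cyp1a1: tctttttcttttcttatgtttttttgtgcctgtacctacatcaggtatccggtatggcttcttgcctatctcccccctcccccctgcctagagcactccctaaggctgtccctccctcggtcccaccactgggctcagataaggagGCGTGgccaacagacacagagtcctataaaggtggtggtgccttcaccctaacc
The match begins 54 bases before the start. Searched on both strands in windows of 250 bases before to 50 after the start, GCGTG was in 52% of 891 genes higher in DBZ, in 48.5% of 707 genes lower in DBZ and in 50.2% of all 9887 measured genes with a window, 3 shares that lay close together. GTGGGAA, the core bound by RBPJ, was in 6.62% of the higher genes, 8.35% of the lower genes and 7.27% of all. A match describes the letters only, and whether the receptor binds the marked stretch of Cyp1a1 was not tested. Bases farther from the start were not searched.

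Interferon-induced genes were the group most often lower in DBZ: 20 of 34 (58.8%) were lower and 0 were higher, with a median of -1.55. Their mean level was 6.95 and 7.01 in DBZ and 9.04 and 7.998 in Rbpj, against 6.96 and 7.13 in ISC, 6.89 and 7.23 in Ent-Pro and 7.80 and 8.29 in ENT, so the Rbpj crypts stood above every crypt group and DBZ lay among them. Ifit1, which blocks translation of foreign RNA, had 6.32 and 5.95 in DBZ and 10.35 and 10.15 in Rbpj (17.4-fold lower; log2 difference -4.12, SE 0.63, adjusted p = 0.00626). Ifit3, its partner, had 5.26 and 4.45 in DBZ and 8.11 and 7.57 in Rbpj (-2.98, SE 0.36, adjusted p = 0.00296). Rsad2 (viperin), an antiviral enzyme, had 6.50 and 6.36 in DBZ and 10.34 and 9.11 in Rbpj (-3.29, SE 0.49, adjusted p = 0.00598). Usp18, which removes the ubiquitin-like ISG15 and damps interferon signalling, had 6.80 and 7.20 in DBZ and 10.63 and 9.58 in Rbpj (-3.11, SE 0.35, adjusted p = 0.00223). The helicase gene Ddx60 had 6.98 and 6.40 in DBZ and 10.56 and 9.57 in Rbpj (-3.38, SE 0.57, adjusted p = 0.00834). In Rsad2, Usp18 and Ddx60 Rbpj replicate 1 was the higher Rbpj array by about 1 (log2), and in all 5 genes the lower Rbpj array was still more than 2 above the higher DBZ array.

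The promoters of 3 of these genes are shown because each holds the letters of the interferon-stimulated response element, searched here as GAAA, any 2 bases and GAAA again on both strands, after the interferon genes had been seen. Each is the 200 bases before the start, 5′ to 3′ on the strand of the gene, from RefSeq on GRCm38.p6, with every match in capitals, here all read from the other strand. Positions are chr19:34640689-34640888, plus strand, for Ifit1, chr19:34583329-34583528, plus strand, for Ifit3, and chr12:26456453-26456652, minus strand, for Rsad2.
Ifit1: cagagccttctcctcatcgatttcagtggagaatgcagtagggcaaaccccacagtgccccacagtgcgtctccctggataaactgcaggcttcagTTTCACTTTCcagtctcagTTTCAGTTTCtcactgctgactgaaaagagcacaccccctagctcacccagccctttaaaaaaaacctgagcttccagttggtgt
Ifit3: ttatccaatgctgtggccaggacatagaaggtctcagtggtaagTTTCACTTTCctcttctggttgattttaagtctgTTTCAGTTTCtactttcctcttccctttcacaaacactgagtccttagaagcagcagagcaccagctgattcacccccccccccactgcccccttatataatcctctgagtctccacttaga
Rsad2: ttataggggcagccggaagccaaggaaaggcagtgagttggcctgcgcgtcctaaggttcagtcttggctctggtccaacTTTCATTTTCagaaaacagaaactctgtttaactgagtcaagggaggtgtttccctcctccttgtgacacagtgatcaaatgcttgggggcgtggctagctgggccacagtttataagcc
Matches begin 104 and 85 bases before the start of Ifit1, 156 and 122 before that of Ifit3 and 120 before that of Rsad2. Of 25 interferon-induced genes with a window of 250 bases before to 50 after the start, 14 (56%) held a match, and of the 14 called lower in DBZ 8 did (57.1%), against 380 of all 9887 measured genes (3.84%), 37 of 891 genes higher in DBZ (4.15%) and 35 of 707 genes lower (4.95%). None of the 3 motifs searched contains another, but the last letters of GTGGGAA can be the first of the response element.

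The interferon difference kept its direction whichever Rbpj array was used and differed in size between them. Without Rbpj replicate 2, 29 of the 34 genes were lower in DBZ and the median was -2.19; without Rbpj replicate 1, 15 were lower, 1 was higher and the median was -0.91. With DBZ replicate 2 left out 8 were lower, with a median of -1.58, and Ifit1 (adjusted p = 0.0509) and Ddx60 (0.0663) lost their calls, whereas Ifit3, Rsad2 and Usp18 kept theirs with any single array left out. On the 4 Sec-Pro arrays alone 6 were lower. The list mean of leukocyte genes, 6.72 and 7.22 in DBZ and 7.44 and 6.31 in Rbpj, was in between on the DBZ arrays, and its part in the result was not tested.

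MHC class II genes gave 0 calls higher and 0 lower among 9 in limma (0 also at an unadjusted p under 0.05), although their median difference was 1.42. Besides H2-Aa, Cd74, the invariant chain, had 10.75 and 11.12 in DBZ and 10.70 and 6.17 in Rbpj (unadjusted p = 0.0823). H2-Ab1 had 11.58 and 11.61 in DBZ and 11.86 and 6.73 in Rbpj (unadjusted p = 0.131), so the 3 genes were near equal on 3 arrays and low on Rbpj replicate 2. On ENT replicate 2 they were low too, Cd74 with 10.69 and 7.998 and H2-Ab1 with 11.30 and 8.69 in ENT. Without Rbpj replicate 1, 5 of these genes were called higher in DBZ, and without Rbpj replicate 2, 0 were. Of 14 class I and antigen-processing genes 2 were higher and 2 were lower, against 9.34% and 7.08% of all genes. Cd1d1, which presents lipids, had 8.76 and 8.63 in DBZ and 6.74 and 7.61 in Rbpj (1.52, SE 0.24, adjusted p = 0.00765). H2-M3, which presents bacterial peptides, had 8.45 and 9.02 in DBZ and 7.32 and 7.63 in Rbpj (1.26, SE 0.23, adjusted p = 0.0108). H2-T3, a ligand of intraepithelial lymphocytes, had 7.49 and 6.69 in DBZ and 8.75 and 8.05 in Rbpj (-1.31, SE 0.33, adjusted p = 0.0311). H2-Q10 had 5.47 and 6.10 in DBZ and 6.60 and 6.62 in Rbpj (-0.83, SE 0.22, adjusted p = 0.0354). Class I genes are alike in sequence, so their probe sets may read more than 1 of them. Adjusted p was 0.078 for H2-M3 and 0.186 for H2-T3 without DBZ replicate 2, and 0.151 for H2-Q10 without DBZ replicate 1.

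Epithelial defence genes beyond interferon had 6 of 29 lower in DBZ (20.7%) and 0 higher. Dmbt1, a secreted scavenger protein that binds bacteria, had 8.37 and 8.18 in DBZ and 10.12 and 12.25 in Rbpj (7.51-fold lower; -2.91, SE 0.54, adjusted p = 0.0112). The cytokine Il18 had 9.66 and 8.98 in DBZ and 10.49 and 10.53 in Rbpj (-1.19, SE 0.21, adjusted p = 0.00991). The chemokines Ccl25 and Ccl20, which draw lymphocytes to the gut, had 12.003 and 11.39 in DBZ and 12.57 and 12.43 in Rbpj (-0.80, SE 0.20, adjusted p = 0.0293) and 6.55 and 6.17 in DBZ and 6.96 and 7.85 in Rbpj (-1.04, SE 0.30, adjusted p = 0.0473). None passed without DBZ replicate 2, where adjusted p was 0.0785 for Dmbt1, 0.0507 for Il18, 0.154 for Ccl25 and 0.233 for Ccl20.

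**Figure D3:**
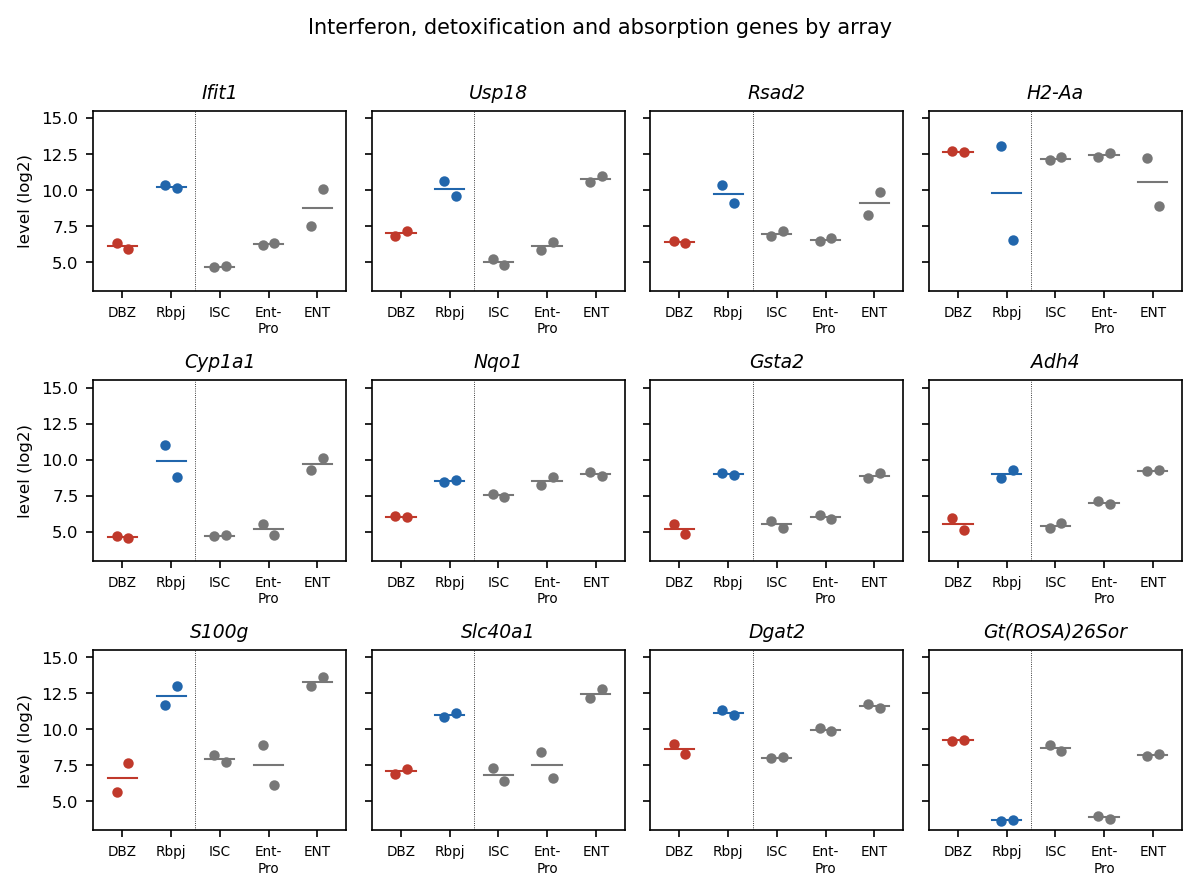
Log2 level of 12 genes on every array: DBZ Sec-Pro (red), Rbpj Sec-Pro (blue), then ISC, Ent-Pro and ENT (grey); points are arrays and bars their mean. Ifit1, Usp18, Rsad2, Cyp1a1, Gsta2, Adh4, S100g, Slc40a1 and Dgat2 are low in DBZ and high in Rbpj and ENT, H2-Aa is low on 1 Rbpj array and 1 ENT array, and Gt(ROSA)26Sor is low in Rbpj and Ent-Pro.

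The largest difference upward was in none of these groups. Gt(ROSA)26Sor, the non-coding transcript of the Rosa26 locus on chromosome 6, had 9.19 and 9.27 in DBZ and 3.67 and 3.71 in Rbpj, where it was near background, at least 23.9-fold higher in DBZ (log2 difference 5.54, SE 0.15, adjusted p = 1.05e-06). In the other groups it had 8.89 and 8.47 in ISC, 4.00 and 3.81 in Ent-Pro and 8.17 and 8.28 in ENT. So 2 of the 5 groups were at or near background and the rest were not. Ent-Pro and ENT differed in it although both came from Atoh1-/- mice. Whether this transcript responds to the Notch block or differs between the mice for another reason was not tested. Cbx6, a Polycomb subunit gene, had 9.16 and 9.29 in DBZ and 6.53 and 5.67 in Rbpj (8.73-fold higher; 3.13, SE 0.24, adjusted p = 0.000592). Cyp2e1, a cytochrome P450 of ethanol metabolism, was higher in DBZ, with 10.69 and 9.89 in DBZ and 6.82 and 7.62 in Rbpj (3.07, SE 0.41, adjusted p = 0.00431). Nefm, a neurofilament gene, had 10.05 and 9.60 in DBZ and 7.23 and 7.49 in Rbpj (2.46, SE 0.20, adjusted p = 0.00068). Ang, the ribonuclease angiogenin, had 11.56 and 11.99 in DBZ and 9.46 and 9.50 in Rbpj (2.29, SE 0.19, adjusted p = 0.000728). Others among the 15 leading genes were Epb42, with 8.92 and 8.46 in DBZ and 6.07 and 6.24 in Rbpj, the matrix genes Thbs1 (9.19 and 7.90 in DBZ, 6.55 and 5.41 in Rbpj) and Prelp (8.70 and 8.53 in DBZ, 5.83 and 6.94 in Rbpj), Nrep (8.94 and 9.68 in DBZ, 6.48 and 7.30 in Rbpj) and the protease gene Prss23 (9.44 and 9.03 in DBZ, 6.45 and 7.44 in Rbpj), all called higher. Tceal8 (7.17 and 8.80 in DBZ, 5.23 and 5.55 in Rbpj) lost its call without DBZ replicate 2 (adjusted p = 0.0576), and Ceacam10 (12.15 and 11.90 in DBZ, 9.88 and 9.28 in Rbpj) lost it without any 1 of the 4 Sec-Pro arrays (up to 0.131, without DBZ replicate 2), without either ISC array (0.055), and with robust eBayes (0.0571) or array weights (0.0835).

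On the lower side, Abhd1, a hydrolase-fold gene, had 5.16 and 4.92 in DBZ and 9.71 and 9.38 in Rbpj (22.6-fold lower; log2 difference -4.50, SE 0.18, adjusted p = 1.08e-05), and the arrays of each group lay close together. Bbox1, which makes carnitine, had 6.29 and 5.07 in DBZ and 10.25 and 9.23 in Rbpj (-4.07, SE 0.44, adjusted p = 0.00203). Acaa1b, a thiolase of peroxisomal fat breakdown, had 6.88 and 6.35 in DBZ and 9.89 and 10.17 in Rbpj (-3.42, SE 0.50, adjusted p = 0.00566). Anxa10, an annexin gene, had 3.98 and 3.71 in DBZ, near background, and 9.22 and 5.91 in Rbpj, at least 7.22-fold lower (-3.72, SE 0.89, adjusted p = 0.0257), and lost its call without DBZ replicate 2 (adjusted p = 0.133) or DBZ replicate 1 (0.0775).

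Leukocyte and stromal markers were few among the calls, set against 9.34% of all genes higher and 7.08% lower in DBZ. Pancreatic acinar genes were lower in DBZ more often than that. Of 42 leukocyte genes 2 were higher in DBZ, Jchain, the joining chain of secreted antibodies (8.34 and 8.68 in DBZ, 6.61 and 6.52 in Rbpj; 1.94, SE 0.39, adjusted p = 0.0146), and Kit, a receptor that mast cells share with crypt goblet cells (11.03 and 11.63 in DBZ, 8.66 and 9.78 in Rbpj; 2.11, SE 0.39, adjusted p = 0.0106), and 0 were lower. Igkv8-30, an immunoglobulin light chain gene, had 8.31 and 8.95 in DBZ and 5.83 and 5.44 in Rbpj (2.99, SE 0.40, adjusted p = 0.00445). Without Rbpj replicate 2, 15 leukocyte genes were lower in DBZ, and without Rbpj replicate 1, 5 were higher. Of 29 stromal and endothelial genes 2 were higher, Col6a1 (5.59 and 5.44 in DBZ, 4.79 and 4.42 in Rbpj; 0.91, SE 0.19, adjusted p = 0.0157) and Lum, near background in Rbpj (4.71 and 4.93 in DBZ, 4.11 and 4.05 in Rbpj; at least 1.13-fold higher, adjusted p = 0.00957), and the list mean was 5.24 and 5.53 in DBZ and 5.34 and 5.24 in Rbpj. Of 15 pancreatic acinar genes, the ribonuclease Rnase1 was higher (14.12 and 14.30 in DBZ, 11.55 and 12.52 in Rbpj; 2.17, SE 0.38, adjusted p = 0.00941), and Reg2, Cpa1, Ctrl and Prss2 were lower, with differences of -0.76, -0.75, -0.71 and -0.64 (log2), all 4 at levels under 7 on the 4 arrays, the probe sets of Prss2 being of opposite sign. In the fit without DBZ replicate 2 adjusted p was 0.0992 for Jchain, 0.0832 for Kit, 0.0722 for Col6a1, 0.0715 for Lum, 0.0685 for Rnase1, 0.0881 for Reg2, 0.0873 for Cpa1 and 0.0706 for Prss2, and for Ctrl it was 0.116 without DBZ replicate 1.

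**Figure D4:**
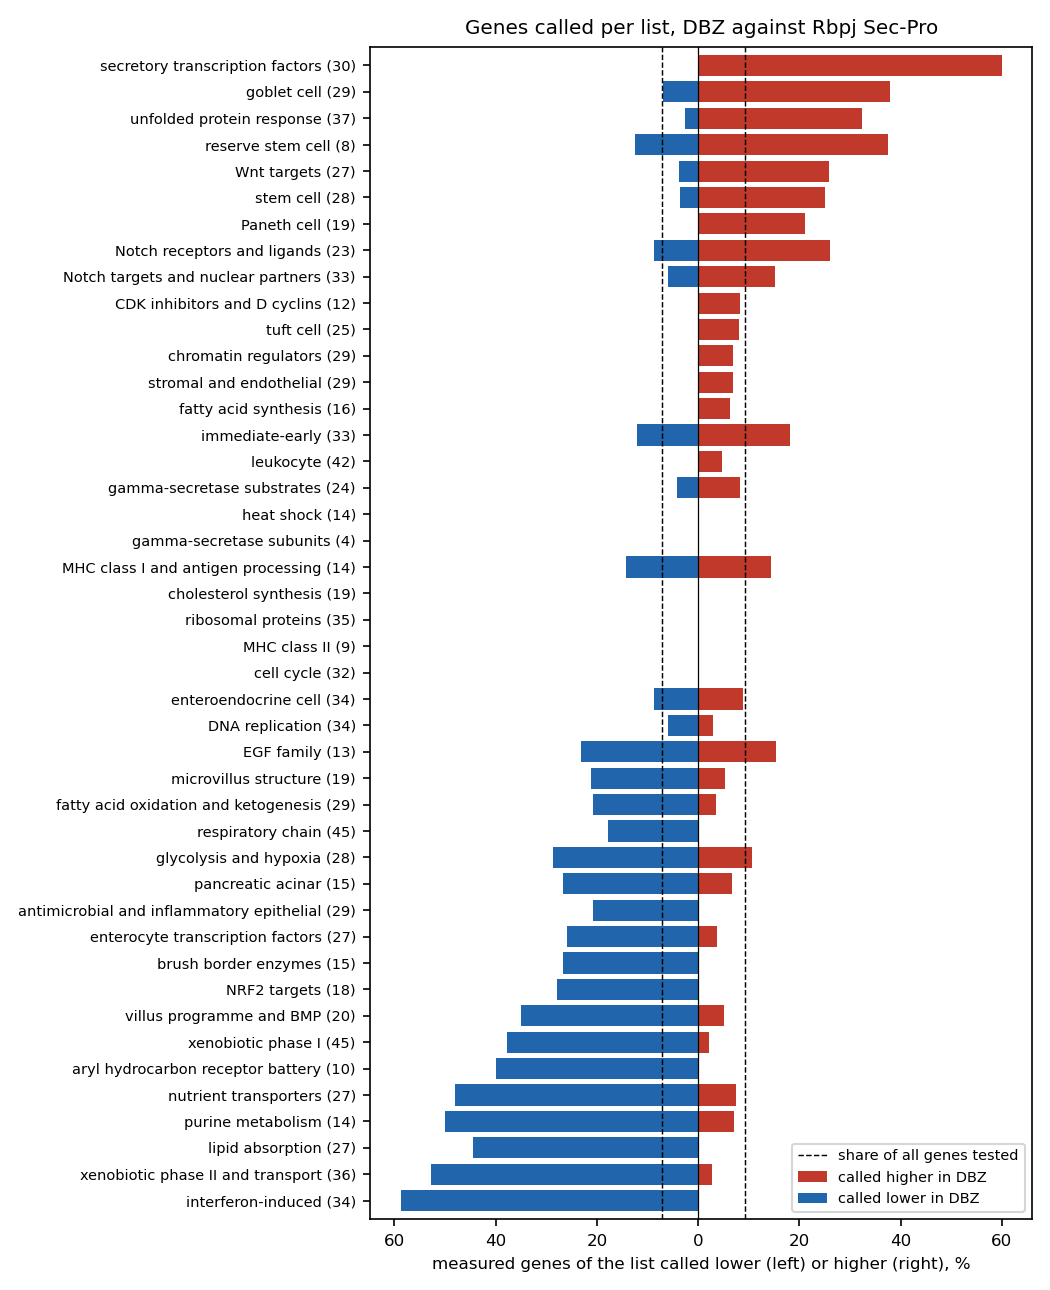
Share of the measured genes of each list (number in brackets) called higher in DBZ than in Rbpj Sec-Pro (red, to the right) or lower (blue, to the left), with dashed lines at the share of all genes, 9.34% and 7.08%. Secretory transcription factors reach 60% higher, and interferon-induced, xenobiotic phase II, purine and nutrient transporter genes 48.1% to 58.8% lower.

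How the difference ran along the crypt to villus axis was read from arrays outside the comparison, which shares no array with ENT minus Ent-Pro. ENT and Ent-Pro also differed in EDTA time (25 and 50 min), so place on the axis and EDTA time cannot be told apart. Across the 12393 genes the DBZ minus Rbpj difference correlated with ENT minus Ent-Pro at r = -0.355 (Spearman rho = -0.354), as a description, since genes are not independent replicates. Of the 878 genes lower in DBZ, 501 (57.1%) were higher in ENT than in Ent-Pro, or 21.9% of the 2291 genes higher in ENT, and 53 were lower in ENT. Of the 1158 genes higher in DBZ, 363 (31.3%) were lower in ENT, or 14.5% of the 2501 genes lower in ENT, and 94 were higher. Of all genes 18.5% were higher in ENT and 20.2% were lower. S100g, lower in DBZ, had 12.97 and 13.61 in ENT and 8.94 and 6.12 in Ent-Pro, and Slc40a1 had 12.15 and 12.76 in ENT and 8.39 and 6.63 in Ent-Pro, and the mean of Rbpj Sec-Pro lay between those of ENT and Ent-Pro for both. The mean of ENT was nearer to Rbpj than to DBZ for 735 of the 878 lower genes (83.7%) and 769 of the 1158 higher genes (66.4%). ENT lay above both Sec-Pro means for 544 of the lower genes and below both for 556 of the higher genes. Such genes count as nearer to Rbpj however far away they lie. The mean of Ent-Pro was nearer to DBZ for 57.1% of the lower genes and to Rbpj for 53% of the higher genes. The correlation was -0.243 without Rbpj replicate 1 and -0.392 without Rbpj replicate 2; without DBZ replicate 2, 116 genes were lower in DBZ and higher in ENT and 64 were higher in DBZ and lower in ENT.

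With ISC minus Ent-Pro the correlation was 0.303 (Spearman rho = 0.251). Of the 1158 genes higher in DBZ, 313 (27%) were higher in ISC than in Ent-Pro, or 18.8% of the 1667 genes higher in ISC, and 86 were lower, while of the 878 genes lower in DBZ, 266 (30.3%) were lower in ISC, or 17.8% of the 1498 genes lower in ISC, and 60 were higher. Of all genes 13.5% were higher in ISC and 12.1% lower. The mean of ISC was nearer to DBZ than to Rbpj for 692 of the 1158 higher genes (59.8%) and 580 of the 878 lower genes (66.1%). ISC lay above both Sec-Pro means for 399 of the higher genes and below both for 354 of the lower genes. These count as nearer to DBZ however far away they lie. The relation to ISC minus Ent-Pro shares the Ent-Pro arrays with the one before, so the 2 are not independent. The ISC arrays also had a 3′ minus 5′ signal of 1.61 and 1.82 for Gapdh, against 0.051 and 0.027 in Ent-Pro, and of 1.92 and 2.02 for Actb, against 0.818 and 0.847 in Ent-Pro. The part of RNA quality in this relation was not tested. Ephb3 had 11.03 and 10.77 in ISC and 8.51 and 8.39 in Ent-Pro, and Sox9 had 10.26 and 10.25 in ISC and 8.81 and 8.29 in Ent-Pro. The correlation fell to 0.239 when DBZ replicate 2 was left out, to 0.234 when Rbpj replicate 1 was, and was 0.338 with DBZ replicate 1 left out. Without DBZ replicate 2 the numbers were 65 genes higher in both and 59 lower in both.

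**Figure D5:**
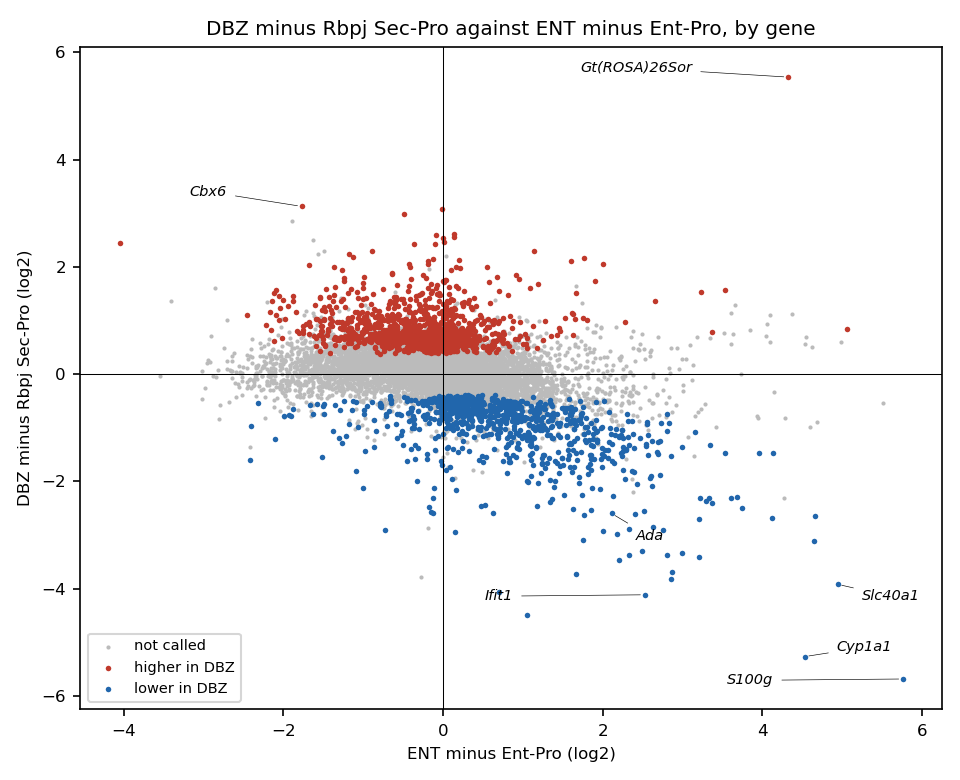
Difference of each gene between DBZ and Rbpj Sec-Pro (y axis, log2) against its difference between ENT and Ent-Pro (x axis, log2), from separate arrays. Red points were called higher in DBZ, blue points lower and grey points neither; r = -0.355 over 12393 genes. Blue points, among them S100g, Slc40a1 and Cyp1a1, stretch to the lower right, and Gt(ROSA)26Sor lies alone at the upper right.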

How the data were processed

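RNA of the 10 samples was hybridised by the study to Affymetrix mouse 430A 2.0 arrays, 2 for each of 5 groups. The authors deposited 1 table of log2 expression values for 22690 probe sets; the submitters' processing notes name RMA and MAS5 without roles or versions, and the values (2.9 to 15.18, array medians 6.83 to 6.98) are on a log2 scale. They were used as deposited. The background and summary steps therefore cannot be changed here, and differences near either end of the scale are compressed. The number of arrays limits the precision.

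After 64 control probe sets were left out, probe sets with 1 gene symbol in GEO's platform annotation were kept (20393 have 1 symbol, 691 several and 1606 none), and the brightest on average over the 10 arrays stood for its gene, which gave 12393 genes. Olfm4, Muc2 and Sis were not among them. A linear model over all 5 groups was fitted with limma 3.58.1 in R 4.3.3 (5 residual and 3.75 prior degrees of freedom), DBZ minus Rbpj was tested with moderated statistics, two-sided, and p-values were adjusted by Benjamini-Hochberg over the 12393 genes, with a threshold of 0.05. On data simulated for this comparison, with 200 of 12393 genes changed, the fit called 69% of those altered by 1 (log2) and 96% of those altered by 2, with 4 to 11 unchanged genes called. The simulated noise was independent between genes and equally wide in every group. The real arrays were not so, since the 2 Rbpj arrays differed more than the 2 DBZ arrays. The simulation therefore does not give the error among the real calls.

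Genes named are the 15 called with the largest difference in each direction, up to 5 called genes of each list by size, all without overlap between the groups, the 2 with the smallest p of a list where under 2 were called, and fixed genes of the pathway and the lineages. The members and the 45 lists (1231 genes, 1026 measured) were chosen with earlier results of these data known. A level within 1 (log2) of the absent-transcript controls was treated as near background, and one within 0.1 of the highest value as at the top of the scale. Both limits were chosen with the data in view. Folds given as at least a value are against that background limit, or the level itself where higher. Replicate numbers do not pair the samples: the deviations of same-numbered arrays correlated at -0.0583. The alternatives were the 4 arrays alone, a replicate block, other scalings, other rules for probe sets, other limma settings, array weights and leaving out each array. Promoters (RefSeq, GRCm38.p6) were matched by symbol for 9887 of the 12393 genes.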

Additional observations from a re-analysis of the deposited data

How the results depend on the processing

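With 2 arrays a group, how many genes pass depends on which arrays are used more than on scaling. Over fits that left out 1 array, genes higher in DBZ ranged from 199 to 1548, genes lower from 164 to 1194 and all calls from 363 to 2742, lowest without DBZ replicate 2 and highest without Rbpj replicate 2. The 4 Sec-Pro arrays alone gave 43 higher, 54 lower and 97 in all, genes above the median level 644, 523 and 1167, a test against a 2-fold change 6, 13 and 19, and array weights, chosen after seeing the data, 533, 424 and 957. The replicate block gave 951, 762 and 1713, of which 1657 were among the 2036. Leaving out 1 array, genes lower in DBZ and higher in ENT than in Ent-Pro ranged from 116 to 707, higher in DBZ and lower in ENT from 64 to 687, lower in both from 5 to 63 and higher in both from 16 to 150. Against ISC minus Ent-Pro, lower in DBZ and higher in ISC ranged from 21 to 105, higher and lower from 10 to 119, lower in both from 59 to 381 and higher in both from 65 to 514. With the probe set of the lowest mean 6 named genes changed sign: Syp (0.40), Msi1 (-0.48), Lfng (-0.16), Pdia6 (-0.36), Prss2 (0.074) and Sdhd (0.20). Others kept their sign but shrank and lost the call. Among them were Bhlha15 (0.64), Epb42 (0.75), Anxa10 (-0.25), Angptl4 (-0.21), Enpp3 (-0.36), Notch4 (0.080), Ampd2 (0.10), Lrig1 (0.090) and Acly (0.0069). The cause was not tested. Of 166 called named genes, 24 kept their sign and call under every alternative except the test against a 2-fold change, which 14 passed, and 142 lost the call under at least 1 of the others.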

Other observations

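Lists of energy metabolism are read against the 7.08% of all genes lower and 9.34% higher in DBZ. Of 29 genes of fatty acid oxidation 6 (20.7%) were lower and 1, Acadsb, named after its values were seen, was higher. Angptl4, an inhibitor of lipoprotein lipase induced by fatty acids, had 7.06 and 6.46 in DBZ and 10.20 and 9.49 in Rbpj (-3.09, SE 0.50, adjusted p = 0.00781). Its probe set with the lowest mean gave a difference of only -0.21, which was not called. Pdk4, which holds glucose back from oxidation, had 7.10 and 6.20 in DBZ and 9.05 and 9.05 in Rbpj (-2.40, SE 0.66, adjusted p = 0.0407). The peroxisomal genes Acox2 and Ehhadh had 6.06 and 6.16 in DBZ and 8.52 and 7.62 in Rbpj (-1.96, SE 0.29, adjusted p = 0.00583) and 9.56 and 9.21 in DBZ and 10.23 and 10.31 in Rbpj (-0.89, SE 0.17, adjusted p = 0.013). Of 45 respiratory chain genes 8 (17.8%) were lower and 0 were higher, each by a small step: Uqcrc1 had 12.27 and 11.98 in DBZ and 12.78 and 12.83 in Rbpj (-0.68, SE 0.14, adjusted p = 0.0151), and Sdhb, Cyc1 and Ndufa5 differed by -0.60, -0.55 and -0.52. Among 28 glycolysis and hypoxia genes 8 (28.6%) were lower and 3 (10.7%) were higher, near the share of all genes (Ndrg1, P4ha2 and Ldhb, the last named after its values were seen). The lower ones were led by carbonic anhydrase 9, Car9, with 7.58 and 6.96 in DBZ and 9.68 and 9.75 in Rbpj (-2.44, SE 0.19, adjusted p = 0.000598). The lipogenic enzyme gene Acly was higher (11.32 and 11.83 in DBZ, 10.29 and 10.56 in Rbpj; 1.15, SE 0.22, adjusted p = 0.0119). It was the only gene called among 16 of fatty acid synthesis. Of those not called, named after their values were seen, Fasn (0.40) leaned higher and Scd2 (-1.17) and Me1 (-0.89) leaned lower. The 19 cholesterol synthesis genes gave 0 calls in limma, with 5 at an unadjusted p under 0.05. Car9 and Acox2 kept their calls with any single array left out. Without DBZ replicate 2, 0 respiratory chain genes passed and adjusted p was 0.0627 for Angptl4, 0.215 for Pdk4, 0.0936 for Ehhadh, 0.102 for Uqcrc1, 0.144 for Sdhb, 0.144 for Cyc1, 0.0821 for Ndufa5 and 0.0859 for Acly.

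Calls among proliferation genes depended on the Rbpj array. The counts of each list below stand against 9.34% of all genes higher and 7.08% lower in DBZ. Of 32 cell cycle genes 0 passed in limma (4 at an unadjusted p under 0.05), and Mki67, a marker of dividing cells, had 11.10 and 11.57 in DBZ and 10.14 and 11.13 in Rbpj (0.70, SE 0.32, adjusted p = 0.161). Without Rbpj replicate 2, 4 cell cycle genes were higher in DBZ, among them the condensin gene Ncapd2, named after its values were seen (adjusted p = 0.001), and Mki67 was called too (adjusted p = 0.0163); without Rbpj replicate 1, 0 were, and adjusted p was 0.131 for Ncapd2 and 0.669 for Mki67. Of 34 replication genes Rfc1 was higher (10.002 and 10.51 in DBZ, 8.85 and 9.13 in Rbpj; 1.27, SE 0.21, adjusted p = 0.00831) and Rrm2 and Mcm10 were lower, with differences of -0.57 and -0.56. Cdkn1b, the cell cycle inhibitor p27, was higher, with 10.18 and 10.72 in DBZ and 8.56 and 9.43 in Rbpj (1.46, SE 0.28, adjusted p = 0.012). Of 13 EGF family genes Lrig1, described above, and the ligand gene Egf were higher (Egf 6.76 and 6.15 in DBZ, 4.44 and 4.96 in Rbpj; 1.75, SE 0.26, adjusted p = 0.00612), and the ligand Hbegf (-1.46, SE 0.42, adjusted p = 0.0486), the receptor Egfr (-0.44, SE 0.12, adjusted p = 0.0432) and the feedback inhibitor Errfi1 (-0.96, SE 0.27, adjusted p = 0.0446) were lower. Of 33 immediate-early genes 6 were higher and 4 were lower (Fos, and Nfkbia, Ier5 and Gadd45b, these 3 named after their values were seen). Gadd45g had 9.97 and 10.88 in DBZ and 8.79 and 9.02 in Rbpj (1.52, SE 0.28, adjusted p = 0.0113), Btg1 12.77 and 12.39 in DBZ and 11.32 and 11.64 in Rbpj (1.10, SE 0.18, adjusted p = 0.00814), and Fos 10.51 and 9.68 in DBZ and 11.85 and 11.34 in Rbpj (-1.50, SE 0.33, adjusted p = 0.0199). Without DBZ replicate 2, calls were lost by Rfc1 (adjusted p = 0.0601), Rrm2 (0.101), Mcm10 (0.138), Cdkn1b (0.0897), Hbegf (0.268), Egfr (0.143), Errfi1 (0.25), Gadd45g (0.058) and Fos (0.127), and Egf and Btg1 kept theirs with any single array left out. Chromatin genes had 2 of 29 higher, Kdm1a (1.06, SE 0.19, adjusted p = 0.00967) and Hdac2 (0.80, SE 0.20, adjusted p = 0.0316), both lost without DBZ replicate 2 (0.054 and 0.131), and 35 ribosomal protein genes gave 0 calls in limma, with 6 at an unadjusted p under 0.05. Xist was higher in DBZ, with 13.04 and 13.42 in DBZ and 12.16 and 12.51 in Rbpj (0.90, SE 0.18, adjusted p = 0.0143; 0.0994 without DBZ replicate 2), and the Y-linked Kdm5d was near background on all 4 arrays (4.33 and 4.38 in DBZ, 3.56 and 3.47 in Rbpj).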
